A study of Homo sapiens with 8 samples.

Results

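The type I keratin gene cluster of human chromosome 17 was examined for regions bound by p63 in CAL27 and SCC13, which are established human squamous cell carcinoma lines. Members were the deposited p63 regions with a midpoint in a 1.05 Mb window of build hg19, chromosome 17 from 38800000 to 39850000, in band 17q21.2. There were 21 such regions among the 13829 of CAL27 and 9 among the 5886 of SCC13, which made 22 different regions of the 15267 in either list. The assay was ChIP-seq, in which DNA bound by a protein is pulled down with an antibody and sequenced, and its 8 samples form 4 groups of 2: p63 immunoprecipitation from CAL27 and from SCC13, and samples titled none from each line. All cells were wild type and untreated. CAL27, derived from a carcinoma of the tongue, was grown with serum. SCC13, derived from a carcinoma of facial skin, was grown in serum-free keratinocyte medium with pituitary extract, EGF and calcium chloride, so line and medium cannot be told apart. Each line has 1 list for both p63 replicates, with positions and no score. No spread between replicates could be computed, the sequencing depth is unknown, and no test between the lines was possible.

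Type I keratins are the acidic partners that pair with basic type II keratins to form the intermediate filaments of epithelial cells. Their genes stand side by side on chromosome 17 and are switched on in different layers and states of an epithelium. p63, encoded by TP63, is the transcription factor that maintains the basal layer of stratified epithelia, and KRT14 is a known p63 target in keratinocytes. KRT14 and KRT15 belong to basal cells. KRT10 is made in the suprabasal layers of the epidermis, and KRT13 in those of the mouth and oesophagus. KRT16 and KRT17 are induced in wounds, in hyperproliferation and in many squamous tumours, and KRT19 is found in simple epithelia and in some basal cells.

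The keratin window held p63 regions at several times the average density in either line, and its surroundings did so as well. CAL27 had 20.0 regions per Mb in the window and 4.55 per Mb in the rest of the genome, a ratio of 4.40 (95% interval 2.72 to 6.72). For SCC13 the window had 8.57 regions per Mb and the rest of the genome 1.94, a ratio of 4.43 (2.02 to 8.41). Against the rest of chromosome 17, with 7.01 regions per Mb in CAL27 and 2.79 in SCC13, the ratios were 2.85 (1.75 to 4.40) and 3.07 (1.38 to 5.93). The excess did not extend to a comparison with the same band. The rest of 17q21.2 had 16.6 CAL27 regions and 7.59 SCC13 regions per Mb, and the ratios were 1.21 (0.640 to 2.27) and 1.13 (0.414 to 3.00). These intervals cover counting error only and treat regions as independent. The window of equal length before the cluster held 20 CAL27 and 10 SCC13 regions, and the one after it held 12 and 6, so that the density of the keratin window could not be distinguished from that of its neighbours.

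**Figure D1:**
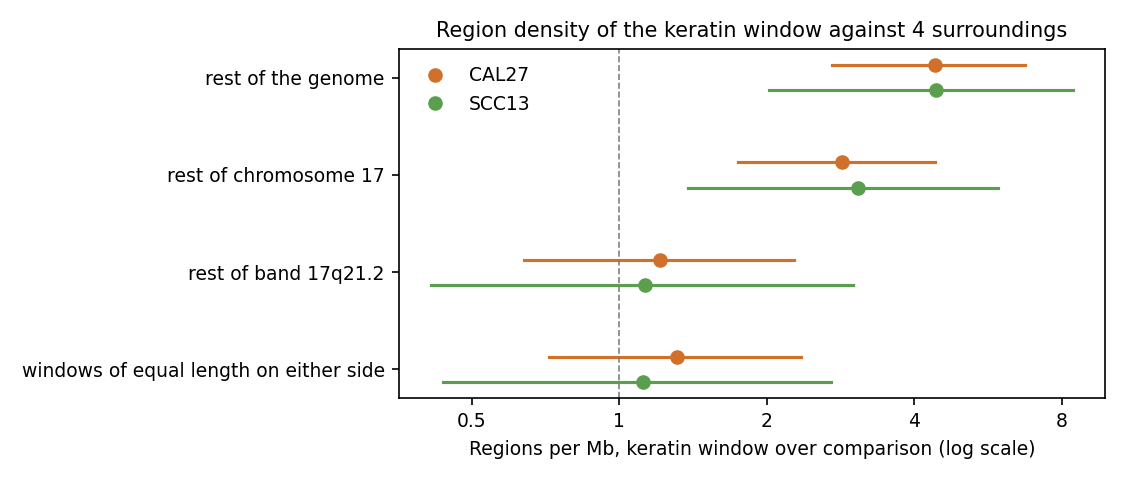
Ratio of p63 regions per Mb in the keratin window to that of 4 surroundings, on a log scale, with 95% intervals as lines and the ratio as a point. The ratios are 4.40 in CAL27 and 4.43 in SCC13 against the rest of the genome, and 1.21 and 1.13 against the rest of band 17q21.2, where both intervals include 1.

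Among windows of the same length along the genome, the keratin window stood near the top of both lists. Of 2879 other windows, 8 held more than its 21 CAL27 regions and 6 held the same number, with a median of 4.00. With 9 SCC13 regions it was exceeded by 22 windows and equalled by 13, with a median of 1.00. Within chromosome 17 none of the 75 other windows exceeded it in CAL27 and 1 equalled it, while 3 exceeded it in SCC13.

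**Figure D2:**
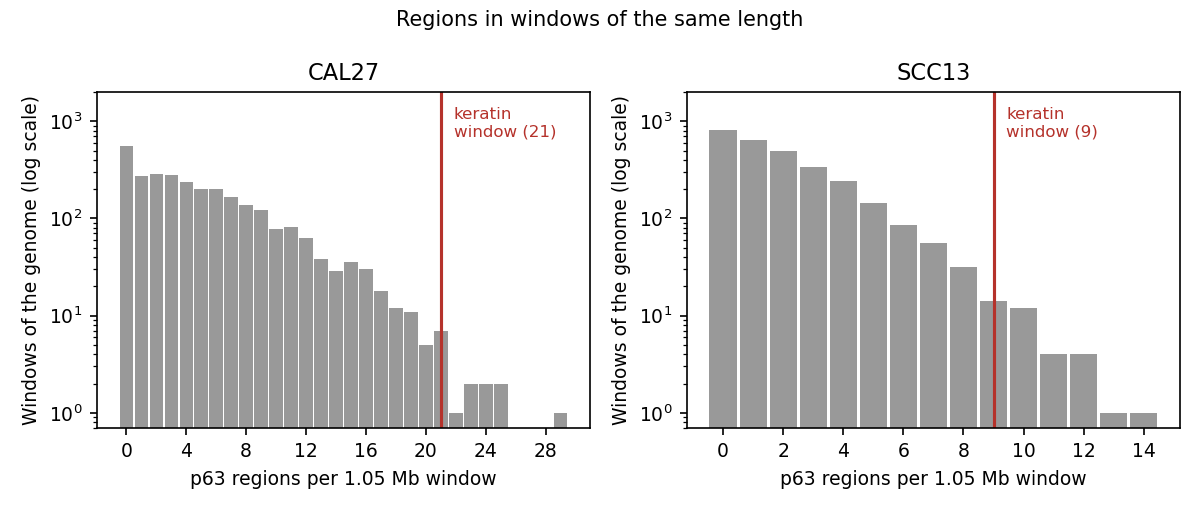
Number of 1.05 Mb windows of the genome (vertical axis, log scale) by the p63 regions they hold (horizontal axis), in CAL27 and in SCC13. The red lines mark the keratin window, with 21 regions in CAL27 and 9 in SCC13, in the upper tail of each distribution.

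The share of each list that fell in the cluster was close in value, with wide intervals. The window held 0.152% of the CAL27 list (95% exact binomial interval 0.0940 to 0.232) and 0.153% of the SCC13 list (0.0699 to 0.290), a ratio of 0.993. With 21 and 9 regions, these intervals are too wide to show that the lines are alike. Over windows with at least 10 regions in either list, 32.4% had shares that differed between the lines by 1.5-fold or more in either direction. The keratin window, with a ratio of 0.963 when 0.5 was added to each count, was not among them.

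Of the 22 regions, 8 were in both lists, 13 in CAL27 alone and 1 in SCC13 alone. Each of the 8 shared regions began and ended at the same base in either list, as did all 4448 shared regions of the whole lists, so this is not particular to the cluster. The bounds of shared regions are therefore not separate measurements in each line. How the lists came to have common bounds is not stated. They made up 38.1% of the CAL27 regions of the window (95% exact interval 18.1 to 61.6), where the percentage over all CAL27 regions was 32.2%. They made up 88.9% of the SCC13 regions of the window (51.8 to 99.7), where the percentage over all SCC13 regions was 75.6%. Both intervals include the percentage of the whole list, so sharing in the cluster was not distinguishable from that elsewhere at these numbers. With neither depth nor peak height known, absence from a list does not mean absence of binding.

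Each keratin gene was placed by the position given with the definition of the window, which is rounded to 10 kb and so known to within 5 kb; which end of the gene it refers to is not stated. Distances run from that position to the midpoint of a region and are positive toward higher coordinates. KRT13 and KRT19 have no such position. In the RefSeq gene table of GRCh38, used only for the order of genes, KRT13 lies before KRT15, and KRT19 and KRT9 lie between KRT15 and KRT14.

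**Figure D3:**
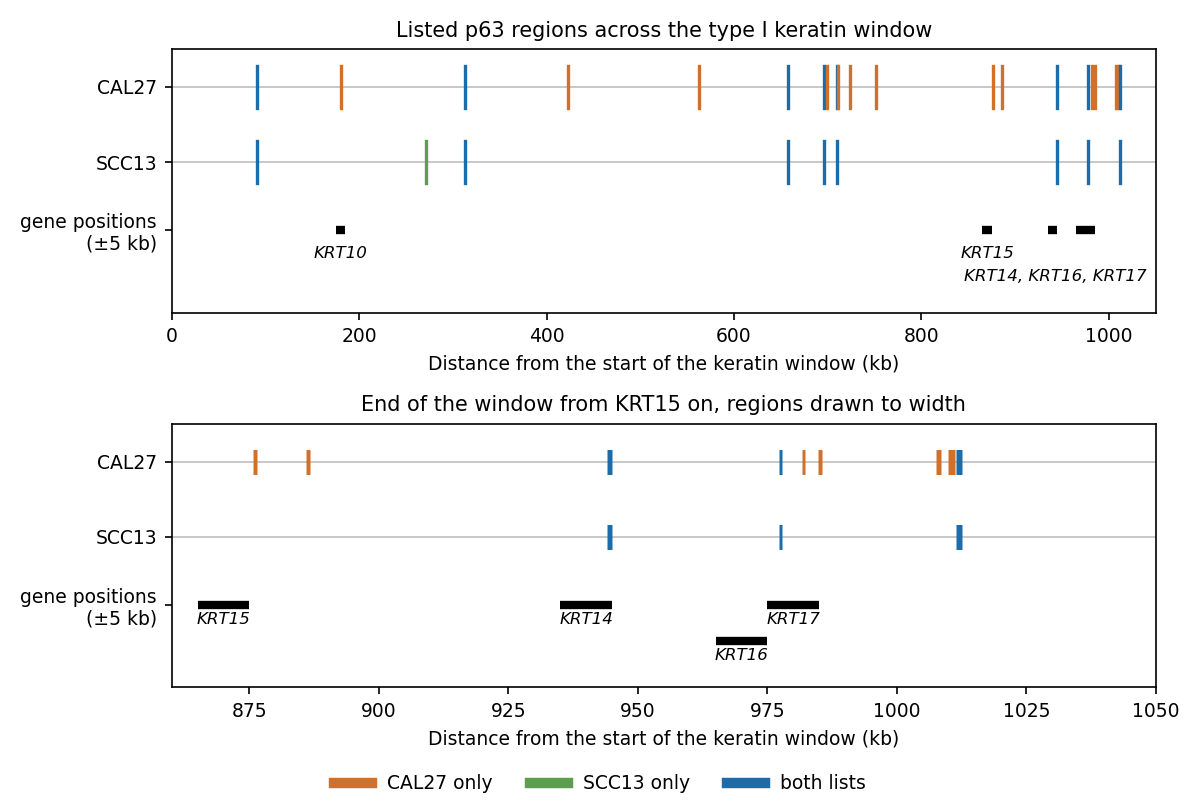
Map of p63 regions in CAL27 and in SCC13 along the keratin window, with distance from the window's start in kb, and an enlarged view from KRT15 on with regions drawn to width. Black bars are the stated gene positions with 5 kb on either side. CAL27 has a midpoint within 10 kb of all 5 positions, and SCC13 within 10 kb of KRT14, KRT16 and KRT17.

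The stated positions of the 2 basal keratin genes differed in the regions listed near them. Near KRT14, at 39.74 Mb, the lists shared a 1036 bp region at chr17:39743979-39745014, 4.50 kb from the stated position. It was the only region of either list within 25 kb of that position. Near KRT15, at 39.67 Mb, CAL27 had a 792 bp region at chr17:39675691-39676482, 6.09 kb away, and an 822 bp region at chr17:39685931-39686752, 16.3 kb away. SCC13 had neither, and its region nearest to KRT15 was the shared one near KRT14, 74.5 kb away. Absence from the SCC13 list was common, since 32.2% of all CAL27 regions were shared. By their midpoints, these CAL27 regions lie between the stated positions of KRT15 and KRT14, an interval that also holds KRT19 and KRT9, so neither can be assigned to a gene.

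The genes of wound and tumour keratins, KRT16 at 39.77 Mb and KRT17 at 39.78 Mb, are neighbours with no gene between them in the RefSeq table. Both lists held a 511 bp region at chr17:39777302-39777812, 7.56 kb from KRT16 and -2.44 kb from KRT17. CAL27 alone had a 596 bp region at chr17:39781711-39782306 and a 724 bp region at chr17:39784786-39785509, 2.01 and 5.15 kb from KRT17. KRT17 thus had 3 CAL27 regions and 1 SCC13 region within 10 kb. The same table lists 13 pseudogenes of KRT16 and KRT17 on chromosome 17. The handling of reads that match such copies is not stated, and their part in the regions listed here was not tested.

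Of the keratins of suprabasal cells, KRT10 at 38.98 Mb had a region near its stated position in CAL27 alone. It was of 599 bp at chr17:38980581-38981179 and 0.879 kb away. That is less than the 5 kb to which the position is known, so the region was not assigned to a gene. The nearest SCC13 region, of 562 bp at chr17:38891172-38891733, lay at -88.5 kb and was shared with CAL27. Between KRT10 and KRT15 lie 49 protein-coding genes in the RefSeq order, among them 34 keratin-associated protein genes of hair and 15 keratins, KRT13 included. No region could be assigned to KRT13 or KRT19.

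The KRT10 promoter is shown as the only promoter of the 7 named keratins that was searched; those of KRT13, KRT14, KRT15, KRT16, KRT17 and KRT19 were not. Whether the CAL27 region covers it could not be determined, since the sequence is of another build. It runs from 250 bases before to 50 after the start of the gene, on the minus strand of chromosome 17 in GRCh38.p14, from RefSeq, with the letters TATAAA in capitals.
KRT10: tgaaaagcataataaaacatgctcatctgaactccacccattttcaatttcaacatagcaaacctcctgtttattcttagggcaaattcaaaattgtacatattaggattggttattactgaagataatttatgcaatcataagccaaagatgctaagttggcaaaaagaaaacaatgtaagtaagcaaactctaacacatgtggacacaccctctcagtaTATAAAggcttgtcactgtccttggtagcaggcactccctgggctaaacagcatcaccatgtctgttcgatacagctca
The TATAAA match begins 29 bases before the start. On either strand these letters occurred in promoters of 15 of 20 type I keratin genes searched, or 75%, and in 11.5% of all 35116 promoters. The 20 genes were KRT10, 4 other epithelial keratins, 4 keratins of the inner root sheath and 11 of hair, so these counts mostly describe hair follicle keratins. Shares of the 20 are by gene and those of all promoters are by promoter, so they are not strictly alike. The 75% is description only and was not tested. A p53-family element, 2 adjoining decamers with the core letters kept and at most 3 mismatches, was in none of these 20 and in 0.427% of all promoters. The AP-1 letters TGANTCA were in none and in 7.71%, and the forkhead letters TGTTTAC were in 1, KRT40, and in 3.42%. For these 3 motifs, 20 genes are too few to tell the counts from such low shares, so no lack of sites can be read from them. The search used both strands, counted a gene if any of its promoters matched, and says nothing of sequence outside these windows. Motifs do not overlap in the sequence shown, which holds TATAAA alone.

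All 5 stated gene positions had a CAL27 midpoint within 10 kb, and 3 of the 5 had an SCC13 midpoint. Over positions every 10 kb of the genome, 8.11% had a CAL27 midpoint so close and 3.68% an SCC13 midpoint. In the rest of band 17q21.2 these percentages were 25.0% and 13.2%. Both backgrounds are evenly spaced positions with or without genes, so being near a gene and being near a keratin gene are not told apart. The positions of KRT16 and KRT17 share a region in both lists and are not independent, and the genes were chosen with these data known.

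Over the whole window, with the regions near the stated gene positions included, regions were spread unevenly. The part from KRT15 to the end of the window, 180 kb long, held 9 CAL27 and 3 SCC13 regions, or 50.0 and 16.7 per Mb. The part from the start of the window to KRT15, 870 kb long, held 12 and 6, or 13.8 and 6.90 per Mb. By regions per Mb, the denser of these parts in either list was the end from KRT15 on. All 3 SCC13 regions there were shared with CAL27 and had the same bounds. How such bounds arose is not stated, so SCC13 cannot be counted as a separate observation. With so few SCC13 regions the difference is uncertain, and no interval was computed. This division was made after the values were seen. Among 16856 other windows of 180 kb, 0.0475% held at least 9 CAL27 regions and 1.73% at least 3 SCC13 regions. Since this part was picked by its values from a dense window, these percentages are description only and do not measure chance. Of the 9 CAL27 and 3 SCC13 regions of this part, 5 and 1 lay after KRT17, as far as 32.0 kb past its stated position. Much of its CAL27 density thus lay past the last stated keratin position.

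CAL27 regions formed small groups. With midpoints within 10 kb joined, CAL27 had 4 groups and SCC13 had 0. They were 3 regions at KRT17 at chr17:39777302-39785509, 3 regions at chr17:39807494-39812552, and pairs at chr17:39495256-39499525 and chr17:39508841-39511371. In each group 1 region was shared with SCC13 and the others were listed in CAL27 alone. No group here could hold more than 1 shared region, since SCC13 had 0 midpoint gaps within 10 kb and shared regions have the same bounds. Over all CAL27 regions, 32.2% were shared. Groups of 3 or more held 28.6% of the CAL27 regions of the window (95% exact interval 11.3 to 52.2), against 5.16% of all CAL27 regions. They held 0 of the 9 SCC13 regions, which allows a share of up to 33.6% by the exact interval, against 0.985% of all SCC13 regions. Both intervals treat regions as independent, although the regions of a group are counted together. Neither is therefore a test of the window against the whole list. With midpoints within 25 kb joined, SCC13 had 1 pair, at chr17:39495256-39510146. Grouping at a fixed distance depends on density, which was 20.0 CAL27 regions per Mb in the window and 4.55 in the rest of the genome. For SCC13 the window had 8.57 per Mb. No share in groups is given for the rest of band 17q21.2, with 16.6 CAL27 regions per Mb, so grouping cannot be called particular to the cluster. The lists differ in length and the difference in grouping was not tested.

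The pairs lay in the interval between KRT10 and KRT15, in a stretch with 7 CAL27 regions between chr17:39457494 and chr17:39551501, of which 3 were shared. Toward KRT10 from there the lists were sparse. The widest gap between neighbouring CAL27 regions was 140 kb, from chr17:39222845 to chr17:39362437, and the widest in SCC13 was 344 kb, from chr17:39113794 to chr17:39457493. The only SCC13 region without a CAL27 counterpart, of 461 bp, was at chr17:39070635-39071095, and was the narrowest of the 22. Of 21 bins of 50 kb, 12 held a CAL27 region and 8 an SCC13 region.

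Regions of the cluster were of ordinary width. The median was 805 bp in CAL27 (95% interval 653 to 1055, n = 21), where other CAL27 regions had 790 bp. In SCC13 it was 1036 bp (511 to 1306, n = 9), where other SCC13 regions had 862 bp. Shared regions have the same bounds in both lists, so the medians of the lines are not independent. Shared regions of the window had a median of 1046 bp and a range of 511 to 1321 bp, and those of CAL27 alone a median of 787 bp and a range of 596 to 1264 bp. Outside the window the medians were 934 bp for shared regions and 723 bp for those of CAL27 alone, in the same order. The widest was the shared region at chr17:39495256-39496576, followed by the shared one at chr17:39508841-39510146 of 1306 bp and a CAL27 region at chr17:39809937-39811200. The narrowest shared region was that of KRT16 and KRT17, so shared regions were not uniformly the wider ones. Each 95% interval of the median includes the median of the other regions of that list.

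**Figure D4:**
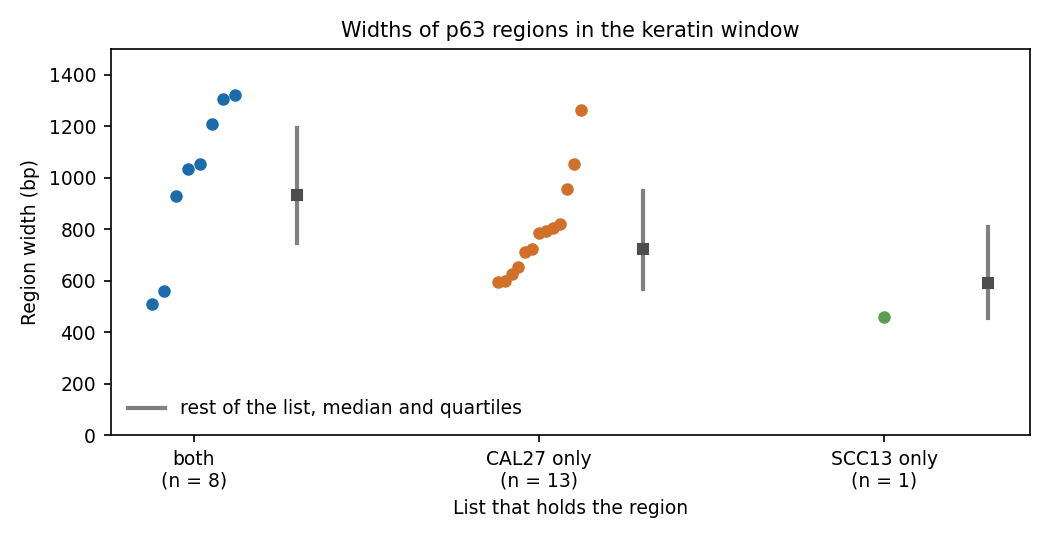
Width in bp (vertical axis) of each p63 region in the keratin window, by the list that holds it; points are regions, and grey squares and lines are the median and quartiles of the other regions of that class in the lists. The shared regions run between 511 and 1321 bp and those of CAL27 alone between 596 and 1264 bp, so the classes overlap.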

How the data were processed

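Crosslinked chromatin of CAL27 and SCC13 cells was pulled down with an antibody to p63, per the labels' protocols. MACS2, Bowtie2 and SAMtools 1.8 are named in the submitters' processing notes, as is build hg19, with no roles. Neither the peak threshold nor the role of the samples titled none is stated there. Each line has 1 region list, which the authors deposited as 3 columns (chromosome, start and end) with no score. Positions are counted from 1.

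Regions were called shared when they overlapped by at least 1 bp. The window and gene positions came with the definition of the cluster. Density used hg19 band lengths supplied with circlize 0.4.16, and windows of equal length were tiled along 22 autosomes and X. Percentages have exact Clopper-Pearson intervals and ratios exact conditional intervals at 95%; the interval of a median is from order statistics. No p-value was computed, as each line has 1 pooled list. Gene order and promoters came from RefSeq tables of GRCh38, whose coordinates were not used. Members and lists were chosen with earlier results of these data known. All 7 named keratins were found in the gene table and KRT10 in the promoter table. The rule was to name the 7 members and the regions nearest to them, shared or widest. Some shared regions are given only as bounds of a gap, group or stretch, and some other regions are named as well. The functions were checked on simulated lists. Python 3.11.15 with numpy 2.4.6, pandas 2.3.3, scipy 1.17.1 and matplotlib 3.10.9 was used.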

Additional observations from a re-analysis of the deposited data

How the results depend on the processing

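No paired analysis was possible because each line has 1 list for both replicates, nor could a replicate be left out. Of 46 alternatives to the counts, percentages, ratios and medians, 39 left the value within its interval or within 1.5 times the count and 7 did not, and measuring the 10 gene distances to the edge of a region moved none by 5 kb. The density ratios against the rest of chromosome 17, 2.85 in CAL27 and 3.07 in SCC13, became 1.21 and 1.13 against the rest of band 17q21.2, and 1.31 and 1.12 against the equal windows on either side, because these surroundings are themselves dense. The median width in SCC13 was 461 bp over the single region listed in that line alone. Joining midpoints within 25 kb gave 1 group in SCC13 in place of 0, and raised the percentage of CAL27 regions in groups of 3 or more to 52.4% (17.7% over all CAL27 regions), as a longer joining distance must; this last setting was chosen after seeing the data. Shared percentages were the same under 3 other overlap rules, which identical coordinates ensure. No threshold could be made stricter, since regions have no score.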
